A study of Homo sapiens with 12 samples.

Results

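Chromatin accessibility at 10 target genes of the tumour suppressor p53 was examined in HCT116 cells: CDKN1A, GADD45A, BTG2, RRM2B, MDM2, SESN1, TP53I3, BAX, BBC3 and FAS. HCT116 is an established human colorectal carcinoma line that carries wild-type p53. Regions of the deposited count table were assigned to a gene where they overlapped its GENCODE 44 body on hg38 extended by 10 kb on either side, which took 20 of the 30170 regions. Of these, 15 lay within 1 kb of a transcript start of the gene itself (9 genes), 2 were distal, that is over 1 kb from any protein-coding start (GADD45A and RRM2B), and 3 lay only at the start of another gene. Counts of a gene's start regions and of its distal regions were summed apart, which gave 11 sums, called start or distal levels here, and 9 of the 11 rest on a single region. BAX had neither, so all 11 sums come from the other 9 genes.

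p53 is a transcription factor that is held at a low level by the ubiquitin ligase MDM2 and accumulates after DNA damage and other stress. It binds a pair of half-sites in promoters, introns and more distant elements, and switches on genes for cell cycle arrest, DNA repair, metabolic defence, cell death and its own inhibitor MDM2. In colorectal tumours p53 is often mutated, and HCT116 is widely used because its p53 pathway is intact.

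HCT116 lines carried the empty vector (EV), the ETS-family factor EHF, the caudal homeobox factor CDX1, or both (EHF+CDX1), with 3 ATAC-seq libraries per line and 12 in all. ATAC-seq uses a transposase that cuts accessible DNA, so a higher count means more accessible chromatin. According to the labels and methods, EHF came from a plasmid selected with G418, and CDX1 from a retrovirus with sorting for GFP. The EHF+CDX1 line was made by adding the EHF plasmid to the CDX1 line. The empty vector line was also selected with G418, and no such step is given for the CDX1 line. The labels give no drug or damage treatment before ATAC-seq beyond this selection. Each genotype is 1 derived line, so the factor and the making of the line cannot be told apart, and no empty retrovirus line is among the groups. Nothing says that replicates were separate cultures, and the p-values then measure only the spread between these libraries.

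Library totals ran from 567366 to 2443334 counts, and the 20 regions together held 120 to 843 counts per library. Much of each library fell elsewhere: mitochondrial-like regions made up 65.0 to 73.8% of EV and 14.5 to 37.2% of the other libraries, and exons of the introduced genes 9.99 to 78.4% of the libraries given a factor. Without these regions the count of p53 targets called was also 0 in each comparison. Outside both, the p53 targets took 0.0809 to 0.111% of the counts in every library. EHF+CDX1 replicate 2 stood apart, its median region holding 22 counts where those of the remaining libraries held 2 to 11, and gave 49.4 to 79.1% of all EHF+CDX1 counts in each of the 20 regions. Of 7 colorectal epithelial marker genes 6 had a region at their start (not CDH1). Of 8 markers of blood, fibroblast, endothelial and liver cells only COL1A1 had one. Regions were listed over all lines together, so a listed region need not be open in each line. VIL1 start held 2, 0 and 1 counts in EV and 9, 28 and 0 in EHF+CDX1. In EV, COL1A1 starts held 11, 17 and 6 counts and EPCAM starts 15, 15 and 8.

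The distal region of GADD45A is shown because it held the closest match to a p53 site among the 20 regions. It lies at chr1:67686722-67686872 (hg38, plus strand) in intron 3 of the canonical transcript. Its edge is 1046 bases from the nearest transcript start of the gene, just past the 1 kb limit. The capitals mark a full p53 site at chr1:67686775-67686794, that is 2 half-sites of 10 bases, GAACATGTCT and AAGCATGCTG, without a spacer. They carry 1 mismatch to the p53 consensus half-site, at position 10 of the second half-site.
GADD45A distal: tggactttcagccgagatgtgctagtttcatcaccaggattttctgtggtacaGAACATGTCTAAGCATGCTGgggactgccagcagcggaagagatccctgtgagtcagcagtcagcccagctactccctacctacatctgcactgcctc

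A full site with at most 1 mismatch and no spacer was found in 11 of the 30170 regions (0.0365%). With up to 3 mismatches and a spacer of up to 13 bases, on either strand and with C and G fixed at positions 4 and 7 of each half-site, a full site was found in 3 of 20 p53 target regions (15%) against 8.55% of all regions. The other 2 matches were the distal region of RRM2B, downstream of the gene (2 mismatches, spacer 2), and a region at the shared start of SESN1 and CEP57L1 (3 mismatches, spacer 13). A half-site without mismatch was present in 2 of 20 regions (10%), those of GADD45A and RRM2B, against 4.93% of all regions. The ETS core (AGGAAGT or CGGAAGT) was found in 1 of 20 regions, at the SF3B6 start beside TP53I3, against 10.3% of all regions. The CDX core (TTTATG or TTTATT) was found in 2 of 20, at the FTL start beside BAX and the start of SESN1, against 15.5% of all regions. These are letter matches in the listed windows and say nothing about binding.

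The starts of CDKN1A and MDM2, the genes of arrest and of feedback, and the TP53I3 region with the smallest p in EHF+CDX1 against EV, are shown with CG dinucleotides in capitals and annotated exons left out. The CDKN1A stretch (chr6:36678568-36678709, plus strand) holds 19 CG dinucleotides in 142 bases. The MDM2 stretch (chr12:68807877-68808027, plus strand) holds 14 in 151 bases and lies upstream of the gene. The TP53I3 stretch (chr2:24084051-24084188, shown on the minus strand, on which the gene is read) holds 9 in 138 bases.
CDKN1A start: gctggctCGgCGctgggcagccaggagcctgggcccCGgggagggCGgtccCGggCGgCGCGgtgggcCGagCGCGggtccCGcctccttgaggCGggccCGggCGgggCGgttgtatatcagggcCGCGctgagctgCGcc
MDM2 start: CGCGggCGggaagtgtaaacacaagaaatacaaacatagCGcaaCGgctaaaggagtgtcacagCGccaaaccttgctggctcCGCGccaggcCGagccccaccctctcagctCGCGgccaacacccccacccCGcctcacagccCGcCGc
TP53I3 start: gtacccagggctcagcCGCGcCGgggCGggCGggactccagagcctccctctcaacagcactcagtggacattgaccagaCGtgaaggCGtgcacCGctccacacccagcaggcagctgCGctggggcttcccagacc

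Levels are given in CPM, which here are counts scaled by library size and TMM factors, and compared between genes per kb of region. RRM2B, a subunit of ribonucleotide reductase that supplies nucleotides for DNA repair, had the highest start level. It was 95.6 ± 15.2 CPM per kb in EV (SD, n = 3 libraries), and its mean over all libraries, 90.3, lay at percentile 98.4 of the 9624 gene starts tested. GADD45A followed at 49.6 ± 4.62 CPM per kb in EV and percentile 93.2. The EV libraries of RRM2B did not overlap those of GADD45A, nor those of GADD45A the next gene in order. From CDKN1A (30.1 ± 14.2 CPM per kb) through MDM2, FAS, SESN1, BTG2 and TP53I3 to BBC3 (14.0 ± 14.0), each gene overlapped its neighbour in EV.

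These 7 starts lay at percentiles 8.69 to 41.9 of all starts over the 12 libraries, the lowest being BBC3 and TP53I3. Their means over all libraries ran from 21.3 to 34.0 CPM per kb against a median of 36.5 over all starts. The distal level was 27.0 CPM per kb for GADD45A (percentile 58.7 of 5050 distal sums) and 22.1 for RRM2B (percentile 41.0). The span of a region was set by the authors' peak calling, and 12 of the 20 regions had the shortest span of 150 bases.

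**Figure D1:**
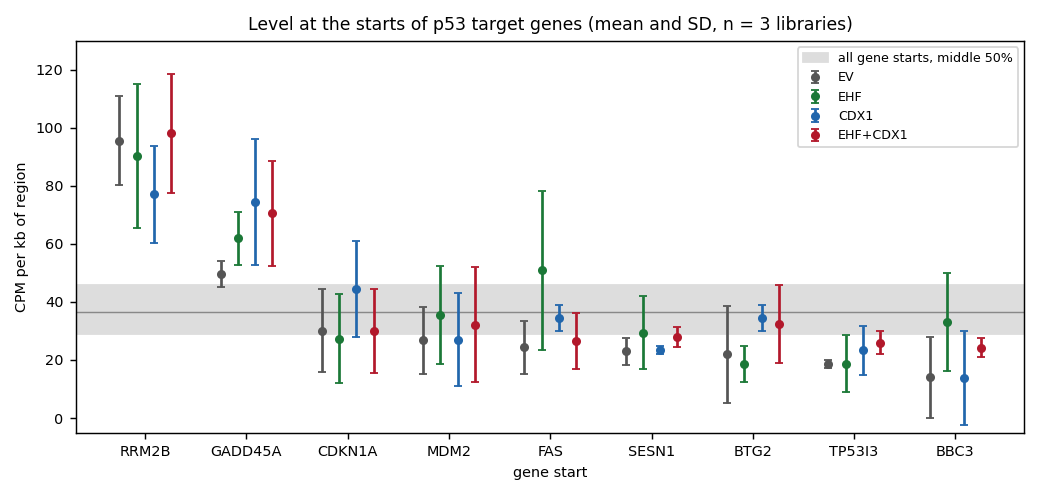
Mean level at 9 p53 target gene starts in CPM per kb of region, with SD over 3 libraries for each of the 4 lines and the grey band holding the middle 50% of all gene starts (line: their median, 36.5). RRM2B and GADD45A stand above the band in EV, at 95.6 and 49.6 CPM per kb, and the other 7 genes lie in it or below it in most lines.

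The comparisons of the lines asked whether EHF, CDX1 or both changed the accessibility of p53 targets. No p53 target passed the threshold of 0.05 (edgeR quasi-likelihood test, Benjamini-Hochberg adjustment over all sums or all regions). Of the 11 sums, 0 were called in EHF against EV (0.0136% of all 14674 sums called), 0 in CDX1 against EV (0.0204%) and 0 in EHF+CDX1 against EV (2.51%). There were likewise 0 in EHF+CDX1 against EHF (2.8%), 0 in EHF+CDX1 against CDX1 (2.13%) and 0 in the interaction of both factors (0.0409%). With these background shares, 0 of 11 is near what all sums gave. At an unadjusted p under 0.05 the count was also 0 of 11 in all 6 comparisons, in the same order against 4.68, 3.25, 17.1, 16.4, 16.2 and 9.01% of all sums, and DESeq2 called 0 of 11 in each.

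Sums whose 3 CPM values all lay above those of the other group numbered 0 of 11 in EHF against EV (7.09% of all sums), 1 in CDX1 against EV (5.23%), 2 in EHF+CDX1 against EV (14%), 0 in EHF+CDX1 against EHF (10.5%) and 0 in EHF+CDX1 against CDX1 (13.1%). They were FAS start in the CDX1 line and the GADD45A and TP53I3 starts in the EHF+CDX1 line. Each comparison has its own background share, and 2 of 11 is near that of EHF+CDX1 against EV.

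Single regions gave the same count of 0 of 20 in EHF against EV (0.00995% of 30154 regions called), CDX1 against EV (0%), EHF+CDX1 against EV (2.59%), EHF+CDX1 against EHF (4.35%), EHF+CDX1 against CDX1 (2.62%) and the interaction (0.123%). An unadjusted p under 0.05 occurred for 1 of 20 regions in EHF+CDX1 against EV (19% of all regions) and for 1 of 20 in EHF+CDX1 against EHF (19.6%), and for 0 in EHF against EV (5.01%), CDX1 against EV (3.81%), EHF+CDX1 against CDX1 (17.6%) and the interaction (9.89%). The region was the same in both, at TP53I3. DESeq2 called 0 of 20 in each comparison.

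The fitted differences of EHF+CDX1 against EV ran from 0.02 to 0.99 on the log2 scale over the 11 sums. All 11 were above 0, with a median of 0.45 against 0.15 over all sums, of which 59.2% were above 0. Under quantile normalisation 8 of 11 were above 0, with a median of 0.26 against 0.00 over all sums, and with library size alone 10 of 11. Without EHF+CDX1 replicate 2 it was 9 of 11 (median 0.37 against 0.16). Fitted as single regions, 15 of 20 were above 0 (57.9% of all regions), with a median of 0.26 against 0.18 over all regions. Medians of the regions within 1 Mb of each gene ran from -0.09 (BAX) to 0.71 (SESN1) in this comparison. The 95% intervals of all 11 differences included 0. Only those of RRM2B and SESN1 starts stayed within a 2-fold difference, so for the other 9 sums neither a 2-fold difference nor none could be set aside with these libraries.

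EHF alone against EV gave differences from -0.12 to 1.35 (8 of 11 above 0, median 0.32 against 0.09 over all sums). CDX1 alone gave -0.29 to 0.73 (7 of 11 above 0, median 0.29 against 0.03). Among single regions, 10 of 20 were above 0 for EHF (median 0.06 against 0.02 over all regions). For CDX1 it was 13 of 20 (median 0.15 against 0). With library size alone as the scaling, 4 of 11 were above 0 for EHF and 2 of 11 for CDX1, while the median over all sums moved to -0.47 and -0.64. These comparisons share the EV libraries.

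**Figure D2:**
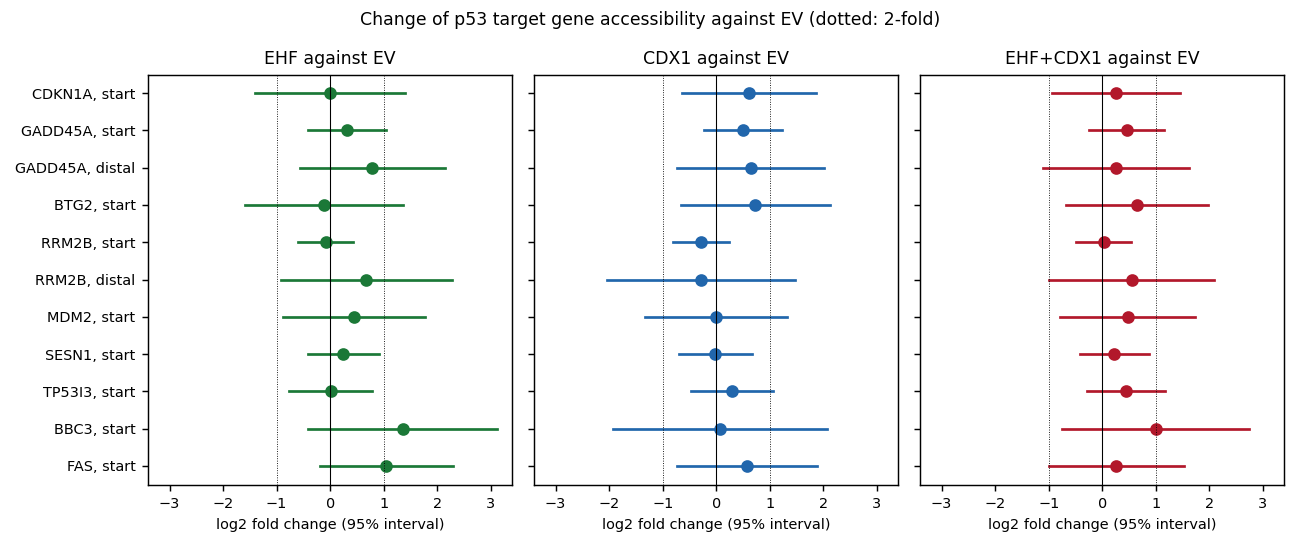
Log2 fold change against EV of the start and distal levels of 9 p53 target genes with 95% intervals (edgeR), in panels for EHF, CDX1 and EHF+CDX1 (dotted lines: a 2-fold difference). All intervals include 0, and those of BBC3 and RRM2B distal are wide, while that of RRM2B start is the narrowest in each panel.

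Among the genes of cell cycle arrest and repair, CDKN1A encodes p21, the inhibitor of cyclin-dependent kinases. Its start region (chr6:36678568-36678718, overlapping an exon) held 5, 3 and 4 counts in the EV libraries, 2, 10 and 7 in EHF, 6, 10 and 8 in CDX1, and 7, 30 and 3 in EHF+CDX1. After scaling this was 4.51 ± 2.14 CPM for EV, 4.11 ± 2.29 for EHF, 6.67 ± 2.47 for CDX1 and 4.49 ± 2.17 for EHF+CDX1, so the lines overlapped. The log2 difference of EHF+CDX1 against EV was 0.26 ± 0.60 (SE, adjusted p = 0.86, edgeR), with a 95% interval from -0.94 to 1.45. It turned to -0.11 under quantile normalisation, to -0.20 without EV replicate 2 and to -0.26 without EHF+CDX1 replicate 2. No other region of CDKN1A was listed within the 10 kb limits.

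GADD45A acts in growth arrest and DNA repair, and its start region (chr1:67685011-67685277, overlapping an exon) held 12, 21 and 8 counts in EV, 15, 45 and 19 in EHF, 22, 28 and 21 in CDX1, and 25, 76 and 29 in EHF+CDX1. The levels were 13.2 ± 1.23 CPM for EV, 16.5 ± 2.42 for EHF, 19.8 ± 5.76 for CDX1 and 18.7 ± 4.82 for EHF+CDX1. All 3 EHF+CDX1 libraries lay above all 3 EV libraries, and the difference was 0.45 ± 0.35 (adjusted p = 0.54, edgeR).

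The GADD45A intron with the p53 site held 3, 7 and 0 counts in EV, 7, 15 and 4 in EHF, 3, 18 and 1 in CDX1, and 8, 15 and 4 in EHF+CDX1. Its level was 2.70 ± 2.47 CPM for EV, 5.40 ± 1.51 for EHF, 4.25 ± 3.95 for CDX1 and 3.83 ± 0.81 for EHF+CDX1. The CDX1 libraries alone spanned 1.18 to 8.70 CPM, which covers the means of all 4 lines. Against EV the log2 difference was 0.79 ± 0.68 for EHF and 0.26 ± 0.68 for EHF+CDX1, and the interaction was -1.18 ± 0.90 (adjusted p from edgeR 0.98, 0.88 and 0.74). The EHF+CDX1 value turned to -0.17 without EV replicate 3, and the interaction to 0.042 without CDX1 replicate 2.

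RRM2B start (chr8:102238789-102239482, overlapping an exon) was the deepest of the 20 regions, with 72, 87 and 40 counts in EV, 52, 144 and 89 in EHF, 51, 138 and 38 in CDX1, and 106, 251 and 101 in EHF+CDX1. The levels were 66.2 ± 10.6 CPM for EV, 62.6 ± 17.2 for EHF, 53.4 ± 11.6 for CDX1 and 68.0 ± 14.2 for EHF+CDX1. The lines overlapped. Fitted among single regions, the same counts gave EHF+CDX1 against EV a wider interval, from -0.80 to 0.86. Fitted among sums, the interval was the tightest of the 11, from -0.49 to 0.54 around 0.02. The value turned to -0.065 with library size alone, to -0.053 or -0.089 when replicate 2 or 3 of EV was left out, and to -0.15 when replicate 3 of EHF+CDX1 was. Its distal region held 0, 9 and 0 counts in EV and 1 to 20 in the other libraries, so its EV level rests on replicate 2. BTG2, an antiproliferative protein, had a single region, at chr1:203305232-203305382, just upstream of its start. Its counts were 1, 4 and 4 for EV, 4, 7 and 2 for EHF, 5, 10 and 5 for CDX1, and 12, 18 and 4 for EHF+CDX1. Its difference of EHF+CDX1 against EV was 0.65 ± 0.66.

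**Figure D3:**
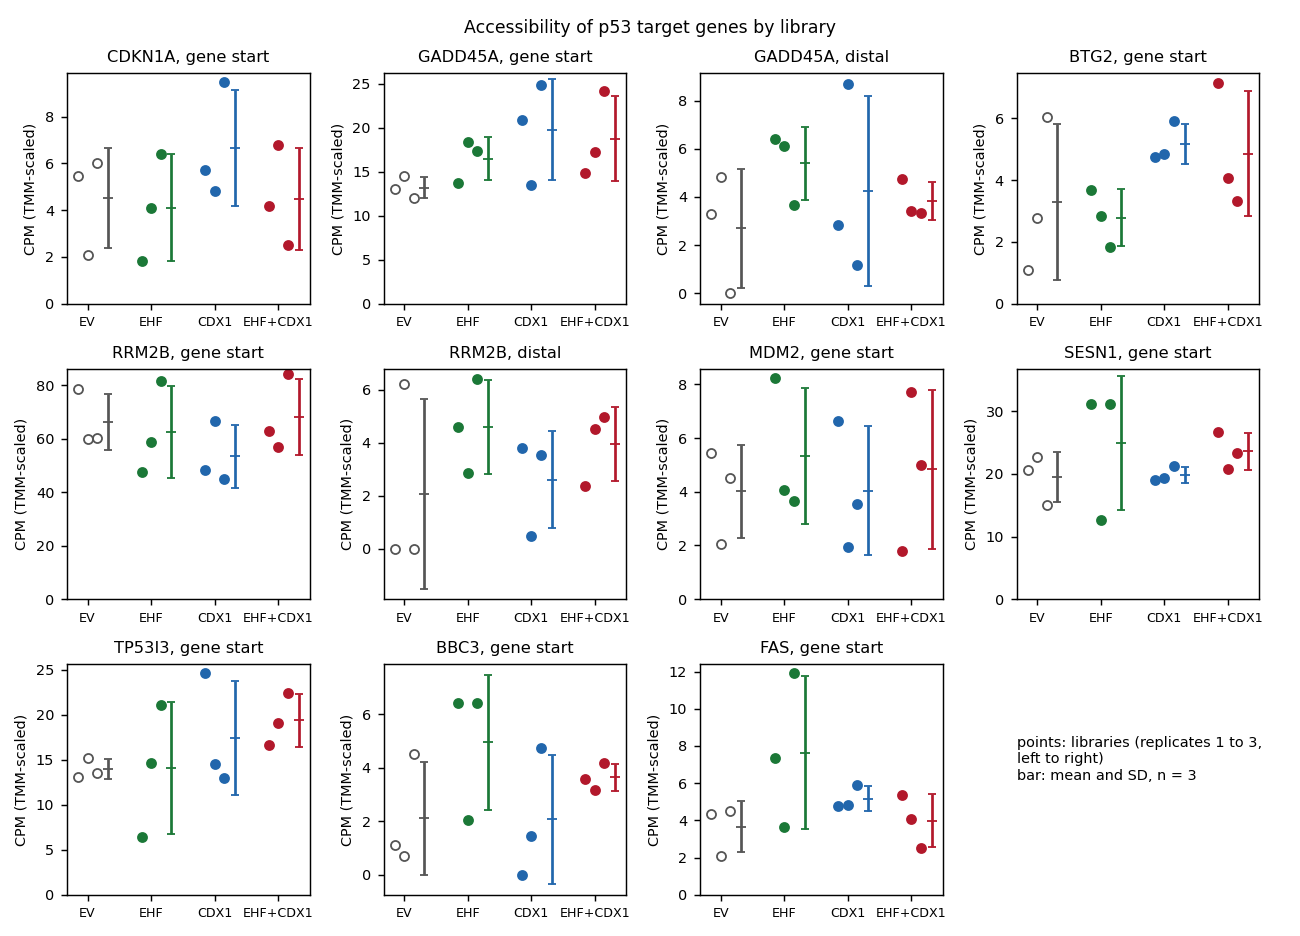
Level of each start and distal sum in CPM for every library (points) of EV, EHF, CDX1 and EHF+CDX1, with mean and SD beside them. GADD45A and TP53I3 starts are the 2 of 11 sums where all EHF+CDX1 libraries lie above all EV libraries, and RRM2B start overlaps in all lines.

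Of the genes of feedback and stress defence, MDM2 had a single region upstream of its start (chr12:68807877-68808027). It held 5, 3 and 3 counts in EV, 9, 10 and 4 in EHF, 7, 4 and 3 in CDX1, and 3, 34 and 6 in EHF+CDX1. Replicate 2 gave 79.1% of the EHF+CDX1 counts. After scaling the levels were 4.01 ± 1.75, 5.33 ± 2.54, 4.05 ± 2.40 and 4.83 ± 2.97 CPM, and the lines overlapped. The difference of EHF+CDX1 against EV was 0.47 ± 0.63 (adjusted p = 0.74, edgeR). It turned to -0.28 under quantile normalisation and to -0.22 without EHF+CDX1 replicate 2. No listed region lay at the internal MDM2 promoter that p53 is known to use.

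SESN1, a sestrin that restrains growth signalling under stress, had 4 start regions, of which 3 lie at the start it shares with CEP57L1 and cannot be ascribed to either gene. Summed, they held 19, 33 and 10 counts in EV, 34, 31 and 34 in EHF, 20, 40 and 18 in CDX1, and 45, 92 and 28 in EHF+CDX1. The levels were 19.5 ± 3.99 CPM for EV, 25.0 ± 10.7 for EHF, 19.9 ± 1.26 for CDX1 and 23.6 ± 2.97 for EHF+CDX1. The interval of EHF+CDX1 against EV ran from -0.42 to 0.87 around 0.23. Without the 10 kb extension, which drops the regions upstream of the gene, the value turned to -0.020. In EHF+CDX1 against EV the region with the 3-mismatch p53 site (chr6:109094895-109095294) had the smallest unadjusted p of this gene, with 0.72 ± 0.45 (adjusted p = 0.38, edgeR). The same region gave 0.89 ± 0.46 for EHF against EV and 0.82 ± 0.44 for EHF+CDX1 against CDX1 (adjusted p = 0.96 and 0.32, edgeR). For CDX1 against EV it gave -0.10 ± 0.50. Regions within 1 Mb of SESN1 had a median of 0.71 in EHF+CDX1 against EV, where all regions had 0.18.

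TP53I3, a quinone oxidoreductase-like enzyme tied to oxidative stress, had 4 start regions, centred 46 to 902 bases downstream of its canonical start. Together they held 12, 22 and 9 counts in EV, 7, 36 and 23 in EHF, 26, 30 and 11 in CDX1, and 28, 84 and 27 in EHF+CDX1. The levels were 13.9 ± 1.11, 14.0 ± 7.34, 17.4 ± 6.36 and 19.4 ± 2.92 CPM, and all EHF+CDX1 libraries lay above all EV libraries. The summed difference was 0.45 ± 0.36 (adjusted p = 0.56, edgeR).

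The TP53I3 region printed above (chr2:24084051-24084245, its centre 686 bases downstream of the start) held 1, 9 and 1 counts in EV, 1, 7 and 6 in EHF, 13, 8 and 2 in CDX1, and 12, 34 and 15 in EHF+CDX1. Its level was 2.94 ± 2.85 CPM for EV, 3.09 ± 2.30 for EHF, 6.20 ± 5.38 for CDX1 and 9.11 ± 2.94 for EHF+CDX1. All EHF+CDX1 libraries lay above all EV libraries (14.9% of all regions) and above all EHF libraries (13% of all regions).

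Its log2 difference was 1.33 ± 0.59 against EV (adjusted p = 0.19, edgeR) and 1.51 ± 0.56 against EHF (adjusted p = 0.098, edgeR), so neither passed, nor did they under any alternative run. Without EV replicate 2, which held 9 of the 11 EV counts, the value against EV was 2.72, and over all libraries left out in turn it ran from 0.96 to 2.72. Its neighbour at chr2:24084418-24084620 lay lower in all EHF+CDX1 libraries than in all EV libraries (7.16% of all regions), with -0.66 ± 0.62 (adjusted p = 0.59, edgeR), and whether the pair differed was not tested. The median over all regions of chromosome 2 was 0.47 in EHF+CDX1 against EV, and that within 1 Mb of TP53I3 was 0.08. The part of the chromosome in the TP53I3 values was not tested.

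**Figure D4:**
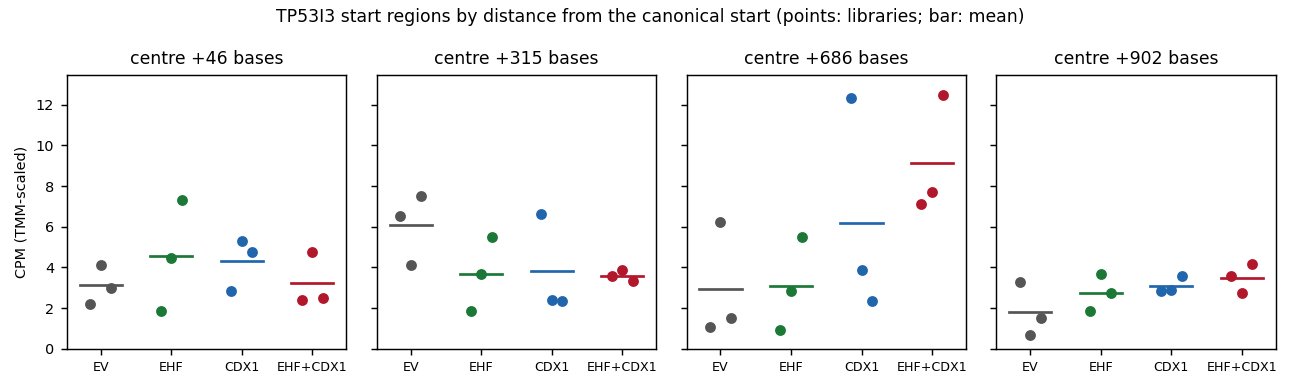
Level in CPM of the 4 TP53I3 start regions in every library (points, with the mean as a bar), ordered by the distance of the region's centre from the canonical start. In the region centred at 686 bases EHF+CDX1 averaged 9.11 CPM against 2.94 in EV, while in the region centred at 315 bases all EHF+CDX1 libraries lay below all EV libraries.

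Of the cell death genes, BBC3 encodes PUMA, which frees the pore-forming protein BAX from its inhibitors, and its region (chr19:47227913-47228063) lies in an intron, near the start of another transcript and 3211 bases from the canonical start. It held 1, 1 and 3 counts in EV, 7, 5 and 7 in EHF, 0, 3 and 4 in CDX1, and 6, 14 and 5 in EHF+CDX1. All EV libraries were at or under 3 counts, with 5 in all. The fitted differences of 1.35 ± 0.88 for EHF and 0.99 ± 0.87 for EHF+CDX1 rest on these few counts and are not bounds (adjusted p = 0.96 and 0.59, edgeR). The levels were 2.10 ± 2.11 CPM for EV, 4.95 ± 2.53 for EHF, 2.06 ± 2.43 for CDX1 and 3.64 ± 0.50 for EHF+CDX1.

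FAS encodes a death receptor, and its start region (chr10:88990653-88990803) also lies within 1 kb of an ACTA2 start, so its reads cannot be divided between the genes. It held 4, 3 and 3 counts in EV, 8, 9 and 13 in EHF, 5, 10 and 5 in CDX1, and 9, 18 and 3 in EHF+CDX1. The levels were 3.65 ± 1.37 CPM for EV, 7.63 ± 4.12 for EHF, 5.17 ± 0.66 for CDX1 and 3.98 ± 1.43 for EHF+CDX1. The CDX1 libraries all lay above the EV libraries, while the EHF libraries overlapped them. EHF against EV gave 1.05 ± 0.62 (adjusted p = 0.96, edgeR). EHF+CDX1 against EV gave 0.26 ± 0.63, and the interaction was -1.36 ± 0.84 (adjusted p = 0.66, edgeR). The former turned to -0.17 under quantile normalisation and to -0.12 without EV replicate 2, and the latter to 0.15 with library size alone. Under that scaling the median interaction over all sums moved from -0.02 to 1.19. Chromosome 10 regions had a median of -0.50 in EHF+CDX1 against EV, and those within 1 Mb of FAS a median of 0.18. The part of the chromosome in the FAS values was not tested.

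BAX, which permeabilises the mitochondrial membrane, had no region at its own start. The region counted for it (chr19:48965160-48965310) lies downstream, at the start of FTL, the ferritin light chain. It held 8, 4 and 4 counts in EV, 9, 10 and 4 in EHF, 7, 8 and 6 in CDX1, and 14, 20 and 4 in EHF+CDX1. The difference of EHF+CDX1 against EV was -0.03 ± 0.57 at region level (edgeR, adjusted p = 0.98), and its 95% interval ran from -1.16 to 1.10.

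A wider list of 29 p53 pathway genes (cell cycle and growth, death, DNA repair, and regulators of p53) had 37 start or distal sums over 28 genes, with no region for TP53AIP1. In EHF+CDX1 against EV 1 of 37 was called higher (1.73% of all sums) and 0 lower. Fitted as single regions, 0 of 62 regions of this list were called in that comparison (2.59% of all regions). The median difference was 0.06 against 0.15 over all sums. In the other 5 comparisons 0 of 37 were called by edgeR, and at an unadjusted p under 0.05 there were 4 of 37 in EHF+CDX1 against EV (17.1% of all sums), 2 in EHF against EV (4.68%), 0 in CDX1 against EV (3.25%), 2 in EHF+CDX1 against EHF (16.4%), 2 in EHF+CDX1 against CDX1 (16.2%) and 2 in the interaction (9.01%). The called start was PERP, a membrane protein of desmosomes that p53 also induces.

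PERP start, the sum of 2 regions, held 4, 2 and 2 counts in EV, 4, 13 and 21 in EHF, 4, 16 and 6 in CDX1, and 15, 56 and 15 in EHF+CDX1. Its level was 9.39 ± 8.55 CPM in EHF, where replicate 3 at 19.2 CPM lay above all EHF+CDX1 libraries, and 6.21 ± 2.11 CPM in CDX1. The level rose from 2.92 ± 1.49 CPM in EV to 11.4 ± 2.12 CPM in EHF+CDX1, and these 2 groups did not overlap (14% of all sums). The log2 difference was 2.06 ± 0.59 (adjusted p = 0.041, edgeR). EV replicates 2 and 3 held under 3 counts, so the size of this difference rests on few EV counts. The call was lost with DESeq2 (adjusted p = 0.12), with quantile normalisation (0.25) and without EHF+CDX1 replicate 2 (0.19), and without EV replicate 1, 2 or 3 (0.051, 0.31 and 0.11). It was also lost with library size alone (0.95), without the 10 kb extension (0.13), and without EHF+CDX1 replicate 3 (0.060) or CDX1 replicate 3 (0.051). Over all alternatives the adjusted p ran from 0.0061 to 0.95.

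Next by unadjusted p were GADD45B start, a relative of GADD45A (1.59 ± 0.59), ZMAT3 start, an RNA-binding protein (1.21 ± 0.55), PERP distal (1.30 ± 0.62) and PMAIP1 start, the cell death protein NOXA (0.69 ± 0.40). None of them passed (adjusted p = 0.14, 0.24, 0.26 and 0.38, edgeR). The highest starts of this list over all libraries were CCNG1 (85.1 CPM per kb) and ATM (76.0), and the lowest were GADD45B (19.5), GADD45G and CDKN2A (21.2 each).

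**Figure D5:**
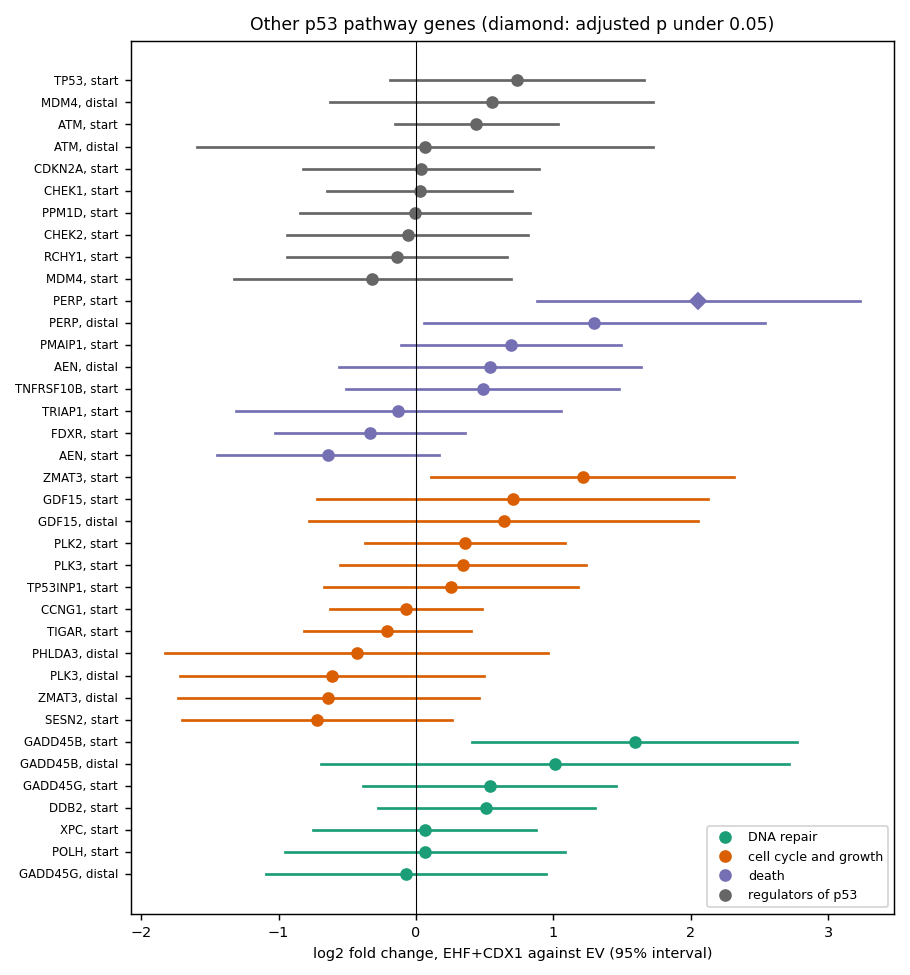
Log2 fold change of EHF+CDX1 against EV with 95% intervals (edgeR) for 37 start and distal sums of 28 other p53 pathway genes, coloured by role. PERP start, at 2.06, is the only sum drawn as a diamond, which marks an adjusted p under 0.05.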

How the data were processed

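Per the labels and methods, the authors aligned read pairs with Subread 2.0.0 (hg38), kept unique reads, called peaks with HOMER 4.7, merged them, and counted reads with featureCounts 2.0.0. The deposited table holds raw counts per region, and the deposited log2 CPM values entered 1 alternative only. Duplicate removal and read shifting are not given in the sources used here. Intervals cover the fitted spread, and amplified reads are not independent molecules. A count of 3, the floor used, corresponds to 0.680 to 4.52 CPM.

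Groups came from sample titles. Start and distal counts were summed for all protein-coding genes. Regions or sums reaching 3 CPM in any library were tested in 1 fit of 12 libraries (edgeR 4.0.16, R 4.3.3, TMM factors of the region table, two-sided), after checks on simulated data. Alternatives used DESeq2 1.42.0, limma 3.58.1, other scalings, filters and gene limits, and left out libraries. Whether deposited starts count from 0 or 1 is not stated, and sequences were read as counting from 1. All 10 members were named. Single regions were named if called, highest, holding a p53 site or of smallest p, others after their values were seen. Pathway genes were named if called, by the 4 smallest p, and by the 2 highest and 2 lowest starts. Members and lists were chosen with earlier results of these data known.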

Additional observations from a re-analysis of the deposited data

How the results depend on the processing

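Under all alternatives run, 0 p53 target sums and 0 regions were called in any comparison. Without the 10 kb extension, MDM2 start, BTG2 start and RRM2B distal held no region, so that run could not call them. With quantile normalisation (limma voom) EHF+CDX1 against EV turned to -0.11 for CDKN1A start, -0.28 for MDM2 start and -0.17 for FAS start. With library size alone RRM2B start turned to -0.065 and the FAS interaction to 0.15. Under that scaling the median interaction over all sums moved from -0.02 to 1.19. Without the 10 kb extension, which drops its regions upstream of the gene, SESN1 start turned to -0.020. Leaving out 1 library at a time gave -0.26 to 0.49 for CDKN1A start, -0.22 to 0.82 for MDM2 start, -0.12 to 0.46 for FAS start, -0.15 to 0.16 for RRM2B start and -0.17 to 0.99 for GADD45A distal, whose interaction ran from -1.91 to 0.042. The cause was not tested.

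Over all sums, 369 were called in EHF+CDX1 against EV, 18 with library size alone, 148 with DESeq2, 109 with limma voom, 38 on leaving out replicate 2 of EHF+CDX1, and 79 or 163 on leaving out replicate 2 or 3 of EV. Same-numbered libraries correlated at -0.01 to 0.31 (5 of 18 pairs above 0.1) and other pairs at -0.17 to 0.06 (0 of 36 above 0.1). Pairing was taken to need every same-numbered pair above 0.1, so the numbers were not used as pairs, although all 12 libraries correlated best with their own number. With a replicate block 894 sums were called and still 0 of 11 p53 target sums, and PERP start had an adjusted p of 0.0061. Of the 11 intervals of EHF+CDX1 against EV, 9 include a 2-fold difference, and the parts of depth and of the spread between libraries were not separated.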
